A study of Rattus norvegicus with 8 samples.

Results

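The genes described here are a set of 45 that drive DNA replication and cell division, chosen by name from the machinery of the G1/S transition, of S phase and of mitosis. A member was taken as measured where a probe set of the array carried its symbol as the single gene name, and the probe set with the highest mean was used for the genes that had more than 1. This gave 41 measured members among 14506 named genes. Mcm3, Mcm4, Cenpe and Mki67 were not analysed here. The arrays, 8 Affymetrix whole-transcript arrays, held RNA of livers from male Wistar rats aged 6 to 10 weeks that were perfused with Krebs-Henseleit buffer, a salt solution used in place of blood. For 4 of them the buffer was normoosmotic (305 mosm/L), and for the other 4 it was hypoosmotic (225 mosm/L), a condition known to swell hepatocytes by water uptake. The time point was 180 min throughout, and the labels name no other treatment or genotype. A liver perfused with buffer is cut off from the circulating blood, which limits it as a model. Whether each array stands for its own animal is not stated, and the p-values therefore reflect variation among these arrays that may be technical in part.

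Most cells of an adult liver are hepatocytes resting outside the cell cycle, and the liver is known for the way these cells re-enter the cycle after tissue loss. Entry into S phase is driven by cyclin D and then cyclin E kinases, which release E2F factors from the retinoblastoma family, and E2F factors switch on genes for nucleotides and for the replication fork. Later, cyclin B with Cdk1 carries the cell into mitosis. Promoters of mitotic genes often hold CHR and CCAAT elements, and B-MYB, FOXM1 and the DREAM complex act on these genes through the CHR.

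The 4 normoosmotic and 4 hypoosmotic arrays lay apart on the first principal component, and hypoosmotic replicate 3 stood apart on the second, at 28.4 against -15.3 to 6.53 for the other 7. The hepatocyte markers bore out the tissue: all 10, among them the albumin gene Alb at a log2 level of 13.11 in normoosmotic and 13.05 in hypoosmotic livers, were measured and 0 changed. Markers of neutrophils were near background in both groups (8 of 8), as were 7 of 10 lymphocyte markers. Near background here means a mean log2 value under 3.07, the 95th percentile of 1105 odorant receptor genes. By this measure 6 members, E2f1, Ccne2, Gins1, Aurka, Bub1b and Ttk, were near background in both groups, and Cdk1 was so in normoosmotic livers.

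Of the 41 measured members 3 rose, 3 fell and 35 did not pass (limma, Benjamini-Hochberg adjusted p under 0.05 over all genes). The rises were those of Rrm2, Tyms and Prim1, which serve DNA precursors and primers, and the falls those of Ccne1, Cdk2 and Mcm7, which encode cyclin E1, its partner kinase and a helicase subunit. Called members were 14.6% of the measured ones, where 7.06% of all genes were called, 2.45% as higher and 4.61% as lower. The members were chosen with earlier results of these data known, which limits what comparisons with all genes can show. With each array centred on its median, 75.8% of all called genes were lower, against 65.3% without centring, and 2 members rose and 3 fell. Of the members, 34 had a mean above that of the normoosmotic group, where 53.7% of all genes did. The members' median change, hypoosmotic minus normoosmotic mean on the log2 scale, was 0.20, against 0.015 for all genes. With each array centred on its median it was 0.165, against -0.025 for all genes. After a further quantile normalization it was 0.171, against -0.000625. All 15 measured mitosis genes were among those that did not pass. The number of falls depended on single arrays: omitting normoosmotic replicate 1 left 0, as did omitting normoosmotic replicate 3 and, separately, the second hypoosmotic array, and omitting normoosmotic replicate 2 left 1. Over all genes the calls also dropped, from 1024 to 626, 464, 544 and 673 in the order of these omissions. With hypoosmotic replicate 3 omitted, 2 members rose and 3 fell (Rrm2 and Prim1; Ccne1, Mcm7 and Pola1). Against a minimum fold change of 1.2, 0 rose and 0 fell by limma's treat. In whole tissue, fewer cells of a type and less RNA per cell cannot be told apart.

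**Figure D1:**
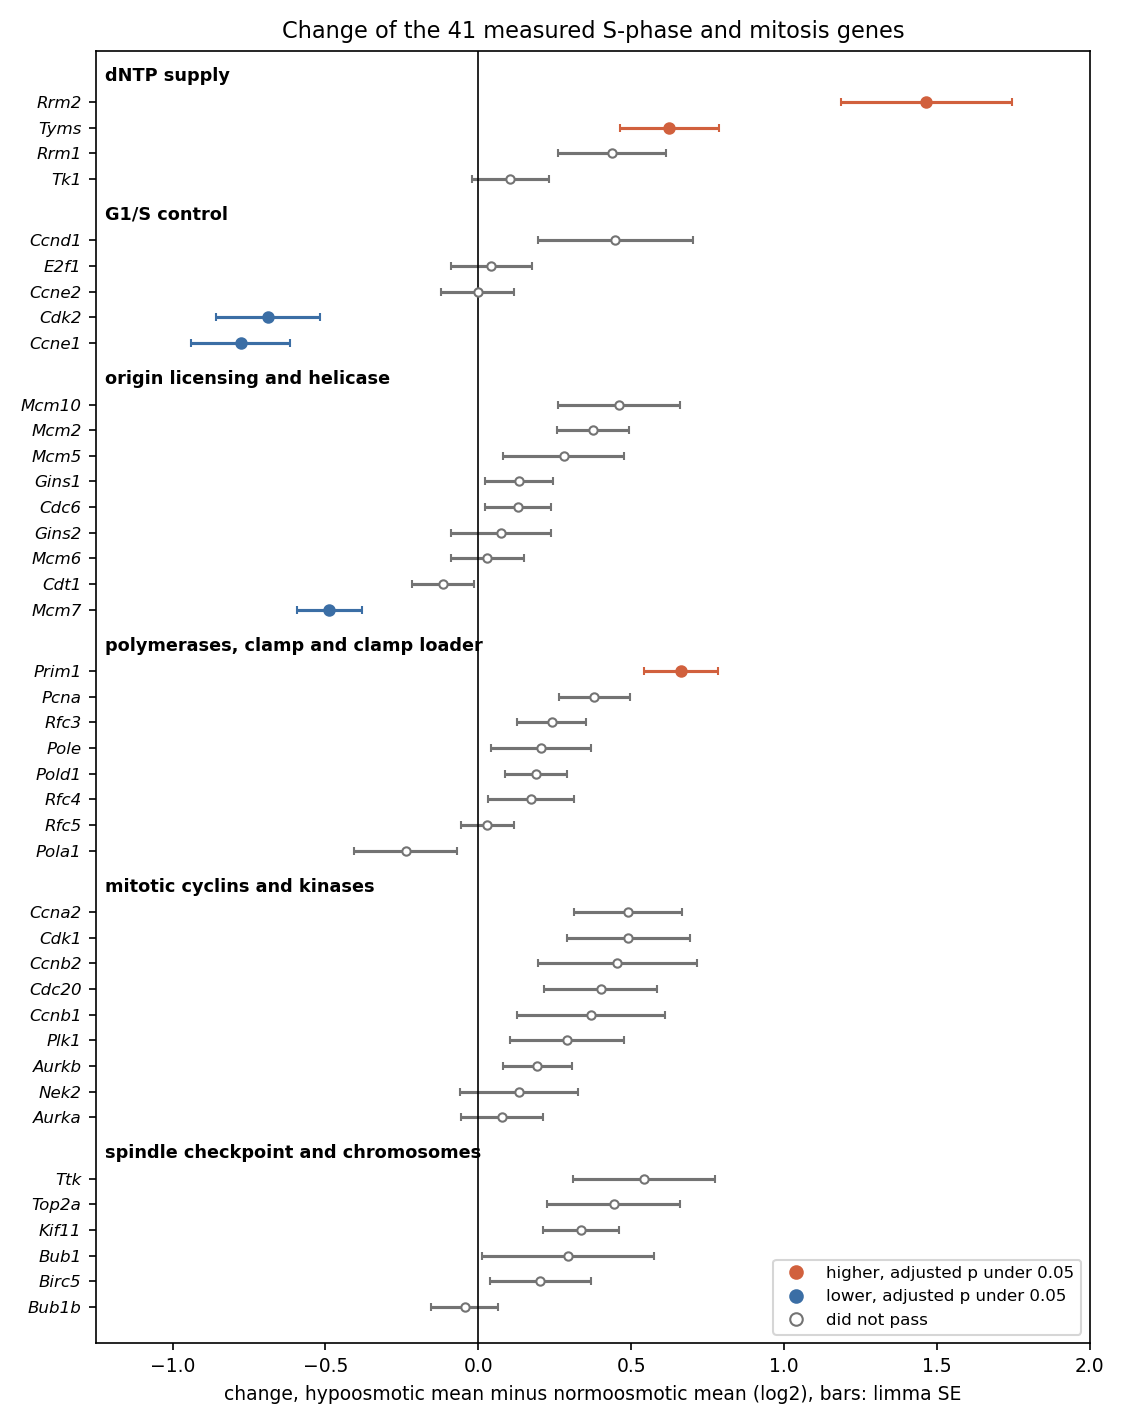
Change of each of the 41 measured genes, as the hypoosmotic mean minus the normoosmotic mean of 4 arrays each on the log2 scale, with the limma standard error as bars, ordered by size within 6 groups of function. Filled points passed an adjusted p of 0.05 and open points did not; Rrm2 lies farthest right at 1.47 and Ccne1 farthest left at -0.78.

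Promoters were searched because these members are textbook targets of E2F factors and of the CHR and CCAAT elements. RefSeq promoters on build GRCr8, which run from 250 bases before to 50 after each gene's annotated start, were found for 34 of the 41 measured members. The letters TTTCCCGC, TTTGGCGC or TTTCGCGC, taken as E2F motifs and searched on both strands, stood in 10 of 21 promoters of replication and G1/S genes (47.6%) and in 1 of 13 of mitosis genes (7.69%), where 1.72% of all 33469 promoters held one. The CHR letters TTTGAA stood in 1 of 21 (4.76%) and in 8 of 13 (61.5%), against 18.3% of all. CCAAT stood in 66.7% and 76.9%, against 37.5% of all. The members' promoters had a median GC content of 59.8%, against 51.7% for all, so the 2 sets also differ in base composition. Of the 11 members with an E2F motif 1 rose (Tyms), 1 fell (Mcm7) and the rest did not pass, and of the 9 with a CHR motif 0 passed. Over all genes 7.06% were called, and 9 members are too few to tell 0 from that share. The median change was 0.205 for the members with an E2F motif and 0.40 for those with a CHR motif, against 0.015 for all genes. A match of letters is a description and not a site of binding.

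The 4 stretches below show the contrast: Tyms and Mcm7 both hold E2F letters and moved in opposite directions, and Cdk1 and Top2a hold the CHR and CCAAT letters of mitotic genes. Each runs 5′ to 3′ along the gene's strand over the 250 bases before its annotated start, with all matches to the 3 motifs in capitals, in either orientation. The Tyms stretch is chr9:120776084-120776333 on the minus strand, with the E2F letters 37 bases before the start. The Mcm7 stretch is chr12:22163179-22163428 on the minus strand, with E2F letters 233 and 52 bases before the start, the latter overlapping a CCAAT by 1 base, and with CCAAT in reverse 140 and 94 bases before it. The Cdk1 stretch is chr20:19265043-19265292 on the plus strand, with CHR letters 72 and 16 bases before the start, CCAAT in reverse at 210, 81 and 49, and the E2F letters of the one mitosis promoter that held them at 133. The Top2a stretch is chr10:84473094-84473343 on the minus strand, with CCAAT in reverse at 4 places and CHR in reverse 22 bases before the start.
Tyms: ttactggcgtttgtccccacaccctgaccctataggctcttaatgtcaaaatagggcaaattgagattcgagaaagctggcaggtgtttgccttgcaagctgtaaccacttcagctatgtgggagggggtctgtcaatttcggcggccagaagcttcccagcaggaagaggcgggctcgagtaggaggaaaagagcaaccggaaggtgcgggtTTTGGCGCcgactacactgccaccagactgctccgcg
Mcm7: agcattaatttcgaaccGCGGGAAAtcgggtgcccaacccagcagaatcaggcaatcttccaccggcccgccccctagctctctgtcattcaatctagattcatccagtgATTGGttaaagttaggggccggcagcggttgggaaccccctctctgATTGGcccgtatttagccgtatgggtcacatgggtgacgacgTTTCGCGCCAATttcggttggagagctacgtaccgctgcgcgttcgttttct
Cdk1: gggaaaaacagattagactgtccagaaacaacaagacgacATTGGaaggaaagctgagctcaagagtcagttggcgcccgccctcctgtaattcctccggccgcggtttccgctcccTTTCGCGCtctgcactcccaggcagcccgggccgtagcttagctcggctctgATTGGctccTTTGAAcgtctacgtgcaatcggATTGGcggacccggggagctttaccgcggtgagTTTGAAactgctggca
Top2a: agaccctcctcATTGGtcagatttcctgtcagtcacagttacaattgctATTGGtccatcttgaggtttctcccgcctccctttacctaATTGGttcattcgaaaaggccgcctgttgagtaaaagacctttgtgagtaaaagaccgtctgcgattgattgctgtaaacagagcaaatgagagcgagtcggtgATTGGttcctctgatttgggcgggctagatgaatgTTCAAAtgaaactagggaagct

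Of the 4 genes of DNA precursor supply, 2 rose and 2 did not pass, with a median change of 0.53. Rrm2, the small subunit of ribonucleotide reductase, which makes deoxynucleotides and is normally made in S phase, had log2 levels of 3.79, 5.02, 3.53 and 4.04 in normoosmotic replicates 1 to 4 and of 6.03, 5.38, 5.35 and 5.48 in hypoosmotic replicates 1 to 4. The groups did not overlap, and normoosmotic replicate 2 came closest to the hypoosmotic range. The rise was 2.76-fold, or 1.47 ± 0.28 (SE) on the log2 scale (limma adjusted p = 0.0123), and it held at each omission of a single array (8 of 8 fits, 0.00573 to 0.0390). A second probe set for Rrm2 gave 3.67 ± 0.59 and 5.10 ± 0.32 (SD, n = 4 each), a change of 1.43, but the 2 probe sets moved together array by array and may read the same sequence, which was not tested.

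Tyms, thymidylate synthase, which makes the thymidine nucleotide, was at 5.21, 5.21, 4.91 and 4.73 in normoosmotic replicates 1 to 4 and at 5.67, 5.85, 5.81 and 5.23 in hypoosmotic replicates 1 to 4. The groups did not overlap, but hypoosmotic replicate 4 lay only just above the normoosmotic range. The change was 0.62 ± 0.16 (SE), or 1.54-fold (limma adjusted p = 0.0407). Tyms passed in 1 of the 8 fits without 1 array, the one that left out hypoosmotic replicate 4 (0.0153), and its adjusted p reached 0.113 without normoosmotic replicate 3. It did not pass after centring each array on its median.

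Rrm1, the large subunit of ribonucleotide reductase, had log2 levels of 5.49, 5.56, 4.92 and 4.75 in the normoosmotic livers and of 5.71, 5.62, 5.49 and 5.65 in the hypoosmotic ones, in replicate order. Normoosmotic replicates 1 and 2 reached the hypoosmotic range and replicates 3 and 4 lay below it, and the change of 0.44 ± 0.18 (SE) did not pass (limma adjusted p = 0.177). A second Rrm1 probe set was near background in both groups. The thymidine kinase Tk1, of the salvage route, had a change of 0.10 ± 0.13 (adjusted p = 0.729). The alternative small subunit Rrm2b, a p53 target that serves resting cells, had a change of 0.72 ± 0.24 (adjusted p = 0.107). It passed in 1 of 8 fits, without hypoosmotic replicate 3 (0.0361).

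Among the 5 genes of G1/S control, 2 fell, 0 rose and 3 did not pass. Ccne1, cyclin E1, the partner that activates Cdk2 at the start of S phase, stood at 4.21, 3.88, 4.38 and 3.72 in normoosmotic replicates 1 to 4 and at 3.56, 3.06, 3.13 and 3.33 in hypoosmotic replicates 1 to 4. Its groups did not overlap, and the log2 change of -0.78 ± 0.16 (SE) was a 1.71-fold lower level (limma adjusted p = 0.0179). Cdk2, the kinase itself, was at 6.06, 5.71, 5.95 and 5.52 against 4.78, 5.35, 4.92 and 5.44, in the same order. The lowest normoosmotic and the highest hypoosmotic value of Cdk2 lay close together, and its change was -0.69 ± 0.17 (SE), 1.61-fold lower (limma adjusted p = 0.0363). With 1 array left out, Ccne1 passed in 5 of 8 fits (0.0212 to 0.0571, highest without hypoosmotic replicate 2) and Cdk2 in 2 (0.0250 to 0.102, highest without normoosmotic replicate 3). Ccne1 was thus lower in every hypoosmotic array than in any normoosmotic one, with means not far above background. Hypoosmotic replicate 2, at 3.06, lay just under the background limit of 3.07, which limits how well the fold can be read.

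Ccnd1, cyclin D1, which rises when hepatocytes leave rest, had values of 6.18, 5.56, 6.06 and 5.20 in normoosmotic and of 6.20, 6.26, 6.73 and 5.60 in hypoosmotic livers, in replicate order. The groups overlapped, and the change of 0.45 ± 0.25 (SE) did not pass (limma adjusted p = 0.368). E2f1, the founding activator of the E2F family, was at 2.33, 2.28, 2.45 and 2.60 against 2.19, 2.54, 2.74 and 2.36. These lie near background in both groups and overlap fully (change 0.04 ± 0.13 SE, adjusted p = 0.912). Cyclin E2, Ccne2, was near background as well, with means of 2.89 in both groups.

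**Figure D2:**
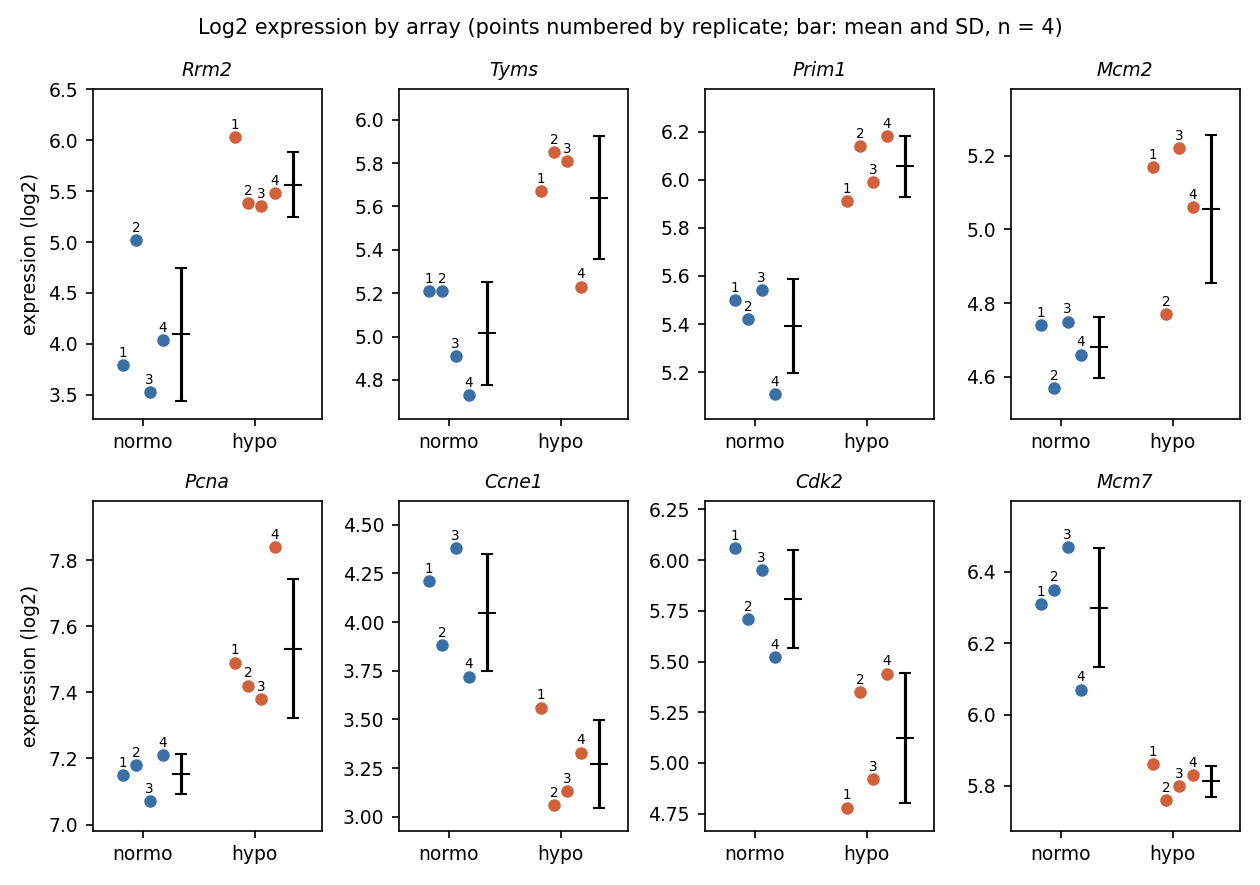
Log2 expression in each of the 8 arrays for 8 genes, with points numbered by replicate in the normoosmotic (left) and hypoosmotic (right) group and the mean with SD (n = 4) beside them. Groups do not overlap in any of the 8 panels; Mcm2 and Pcna did not pass the test, and the y axes differ between panels.

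Of the 9 measured genes of origin licensing and of the replicative helicase, 1 fell, 0 rose and 8 did not pass, with a median change of 0.13. The helicase is a ring of Mcm2 to Mcm7 loaded at origins with the help of Cdc6 and Cdt1. Mcm7 was at 6.31, 6.35, 6.47 and 6.07 in normoosmotic replicates 1 to 4 and at 5.86, 5.76, 5.80 and 5.83 in hypoosmotic replicates 1 to 4. The hypoosmotic values were tightly grouped, with an SD of 0.04, below all normoosmotic ones. The change was -0.49 ± 0.11 (SE), 1.40-fold lower (limma adjusted p = 0.0224), and it passed in 4 of 8 fits without 1 array (0.0233 to 0.0725, highest without normoosmotic replicate 3).

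Mcm2, another subunit of the ring, had values of 4.74, 4.57, 4.75 and 4.66 against 5.17, 4.77, 5.22 and 5.06, in replicate order. Here the hypoosmotic values all lay above the normoosmotic ones, but the change of 0.38 ± 0.12 (SE) did not pass (limma adjusted p = 0.0842), except without hypoosmotic replicate 2 (0.0405, range over the 8 fits to 0.186). The other measured ring subunits, Mcm5 and Mcm6, had changes of 0.28 ± 0.20 and 0.03 ± 0.12 (SE; limma adjusted p = 0.50 and 0.935). Mcm10, which helps to fire origins, had a change of 0.46 ± 0.20 (adjusted p = 0.213). The loaders Cdc6 and Cdt1 and the helicase cofactors Gins1 and Gins2 had changes between -0.12 and 0.13. Of the 4 measured ring subunits Mcm7 fell, and the means of Mcm2, Mcm5 and Mcm6 were higher in hypoosmotic livers without passing, and the difference between subunits was not tested.

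Of the 8 genes of polymerases, clamp and clamp loader, 1 rose, 0 fell and 7 did not pass. Prim1, the catalytic subunit of primase, which lays the RNA primers for DNA synthesis, was at 5.50, 5.42, 5.54 and 5.11 in normoosmotic replicates 1 to 4 and at 5.91, 6.14, 5.99 and 6.18 in hypoosmotic replicates 1 to 4. The groups lay well apart, and Prim1 had the smallest adjusted p of the 41 members. Its change was 0.66 ± 0.12 (SE), or 1.58-fold (limma adjusted p = 0.0110), and it passed in all 8 fits without 1 array (0.0170 to 0.0327). The subunits that work with it in the same complex had changes of -0.24 ± 0.17 (Pola1, adjusted p = 0.501), 0.01 ± 0.10 (Pola2, 0.972) and 0.10 ± 0.18 (Prim2, 0.848). Pola1 turned on a single array: hypoosmotic replicate 3 was at 4.56 while replicates 1, 2 and 4 lay between 3.72 and 3.85, and without it Pola1 was lower with an adjusted p of 0.0402.

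Pcna, the sliding clamp that holds polymerases on DNA and also serves repair, had log2 levels of 7.15, 7.18, 7.07 and 7.21 in the normoosmotic livers and of 7.49, 7.42, 7.38 and 7.84 in the hypoosmotic ones. The groups did not overlap, yet the change of 0.38 ± 0.12 (SE) did not pass (limma adjusted p = 0.0806), nor did it in any of the 8 fits without 1 array (0.0672 to 0.195). Pold1, the catalytic subunit of polymerase delta, was at 3.52, 3.34, 3.32 and 3.49 against 3.76, 3.56, 3.54 and 3.57. These groups did not overlap either, by a margin of only the second decimal, with a change of 0.19 ± 0.10 (adjusted p = 0.332). The clamp loader genes Rfc3, Rfc4 and Rfc5 and the polymerase epsilon gene Pole had changes between 0.03 and 0.24. In all, 6 members had every hypoosmotic value above every normoosmotic one and 3 had it below, of 41; over all genes these shares were 5.32% and 8.20%.

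None of the 15 measured mitosis genes passed (0 by limma, adjusted), where 7.06% of all genes did. In none were the groups separate, where 13.5% of all genes had separate groups. At an unadjusted limma p under 0.05 there were 4, all with a positive change. Of all genes 20.7% were under that p, and 1417 of 14506 were so with a positive change. The median change of the mitosis genes was 0.34, against 0.015 for all genes. A higher hypoosmotic mean was seen in 14 of 15, where 53.7% of all genes had one. Of the 15, 3 were near background in both groups, and Cdk1 was so in normoosmotic livers. Ccnb1, cyclin B1, which carries Cdk1 into mitosis, was at 3.36, 3.73, 3.20 and 2.85 in normoosmotic replicates 1 to 4 and at 4.29, 3.32, 3.80 and 3.21 in hypoosmotic replicates 1 to 4. Hypoosmotic replicates 1 and 3 lay above the whole normoosmotic group and replicates 2 and 4 within it (change 0.37 ± 0.24 SE, limma adjusted p = 0.455).

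Cdk1, the mitotic kinase, was at 3.10, 3.05, 2.65 and 2.66 against 3.80, 3.13, 3.62 and 2.87 in the same order. The same 2 hypoosmotic replicates were highest, and the change was 0.49 ± 0.20 (SE, limma adjusted p = 0.187). Top2a, the topoisomerase that untangles chromosomes before they part, was at 3.79, 4.0, 3.90 and 3.75 against 4.88, 4.26, 4.46 and 3.61. Its hypoosmotic values ran from below to well above the normoosmotic range (change 0.44 ± 0.22 SE, adjusted p = 0.283), and Top2a passed in 1 of 8 fits, without hypoosmotic replicate 4 (0.0288, range to 0.552). The other changes were between 0.08 and 0.49 for the cyclins, kinases and kinase-linked genes Ccna2, Ccnb2, Cdc20, Plk1, Aurka, Aurkb and Nek2. The checkpoint kinase Ttk had a change of 0.54 ± 0.23 (adjusted p = 0.212) at levels near background, the spindle motor Kif11 one of 0.34 ± 0.12 (adjusted p = 0.146), and Bub1, Birc5 and Bub1b had changes of 0.29, 0.20 and -0.04.

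Most of the mitosis genes were highest on the same pair of hypoosmotic arrays. Replicates 1 and 3 both stood above replicates 2 and 4 in 10 of the 15 (66.7%), Ccna2, Ccnb1, Ccnb2, Cdk1, Cdc20, Aurka, Nek2, Bub1, Birc5 and Top2a, and not in Plk1, Aurkb, Bub1b, Ttk and Kif11. This held for 9 of 26 replication and G1/S members (34.6%) and for 14.7% of all genes. It also held for 20 of 39 other mitosis genes that are no members (51.3%). The mean of the 15 genes, each set against its own mean over all arrays, was 0.49 and 0.33 in hypoosmotic replicates 1 and 3 and -0.02 and -0.18 in replicates 2 and 4. In the normoosmotic group it was 0.10 in replicate 2 and between -0.30 and -0.21 in the others. The pair was picked from these same values and no other pair was counted, so the shares are not those of a pair fixed beforehand. The values come from single arrays and are a description, since genes of 1 array share its RNA.

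**Figure D3:**
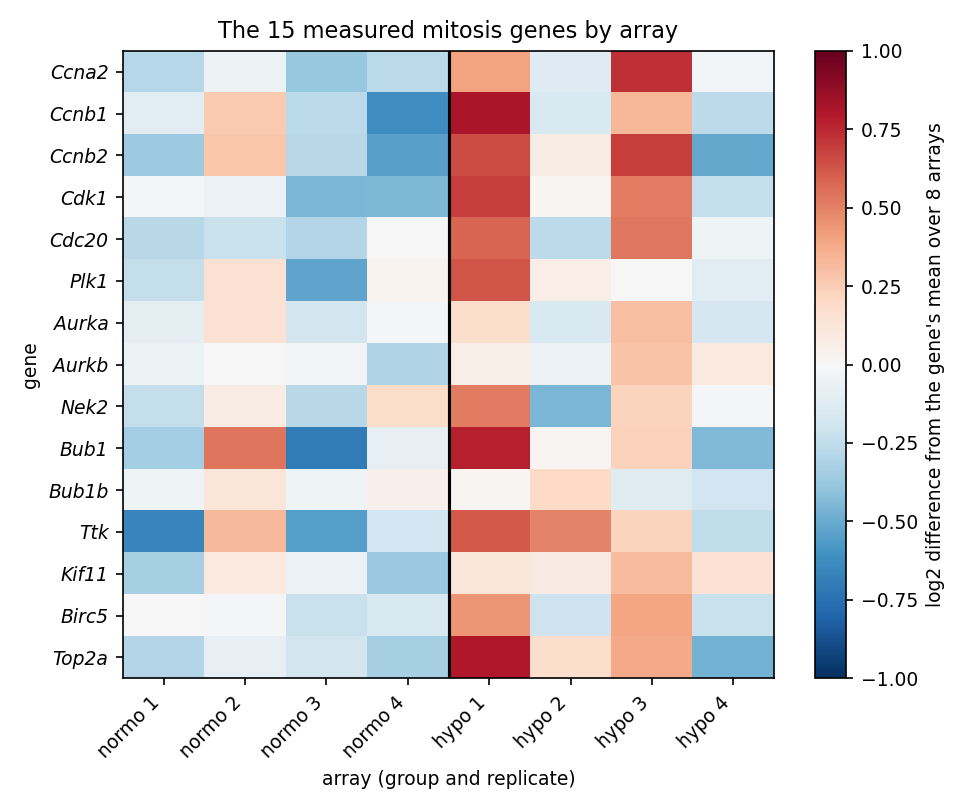
Log2 difference of each of the 15 measured mitosis genes (rows) from its own mean over 8 arrays, for each array (columns), with the groups divided by a line. Hypoosmotic replicates 1 and 3 are the reddest columns, with list means of 0.49 and 0.33, and hypoosmotic replicate 4 is close to the normoosmotic columns at -0.18.

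Markers of other liver cells were read on the same arrays, since dividing cells in a resting liver can belong to any cell type. The 7 measured markers of sinusoidal endothelium had a median change of 0.33, and 1 of them, Kdr, rose (0.66 on the log2 scale, limma adjusted p = 0.0280, passed in 2 of 8 fits without 1 array, up to 0.0654). Their list mean, computed in the same way, was between -0.28 and -0.02 in normoosmotic and between -0.03 and 0.40 in hypoosmotic arrays. Hypoosmotic replicates 3 and 2 were highest, at 0.40 and 0.26, with replicate 1 at 0.05. The 10 stellate cell markers, of which 0 passed and Lum was near background, gave -0.12 to -0.03 and -0.38 to 0.29, with hypoosmotic replicate 4 lowest and replicates 1 and 3 highest. The 9 Kupffer cell markers, of which 0 passed, gave -0.38 to 0.18 and -0.32 to 0.50, with hypoosmotic replicate 2 highest, and the 10 hepatocyte markers -0.05 to 0.09 and -0.10 to 0.03. Of the 6 erythroid markers 1, Ahsp, rose at a level near background in both groups (limma adjusted p = 0.0343), and of the 6 cholangiocyte markers 0 passed. The part of these cell types in the values of the replication and mitosis genes was not tested.

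**Figure D4:**
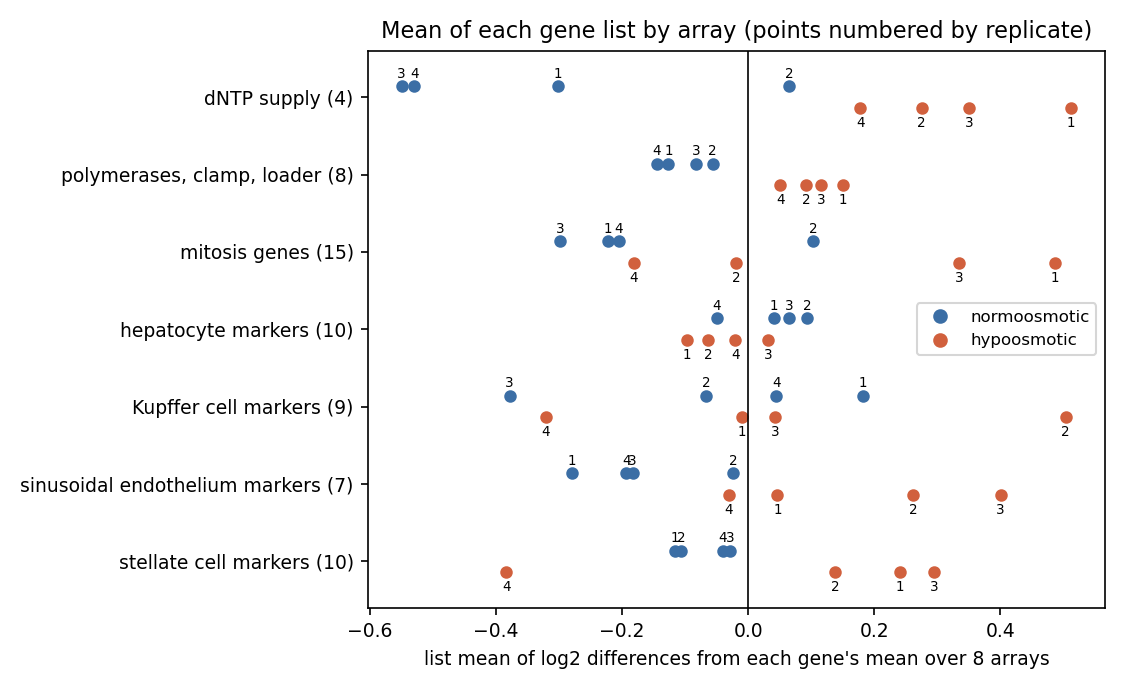
Mean over the genes of a list of the log2 difference from each gene's mean over 8 arrays, with 1 point per array numbered by replicate, and the number of genes of each list in parentheses. In the dNTP (DNA precursor) list of 4 genes Rrm2, with a change of 1.47, weighs most, and Rrm1 and Tk1 overlap between the groups. A mean without Rrm2 was not taken. The dNTP and polymerase lists separate the groups (highest normoosmotic value 0.07 and -0.06, lowest hypoosmotic value 0.18 and 0.05). The mitosis list does not. Nor do the G1/S control and origin licensing lists, which are not plotted. They gave -0.08 to 0.27 and -0.11 to 0.03 in normoosmotic arrays, against -0.21 to -0.01 and -0.12 to 0.24 in hypoosmotic ones. A list of 27 licensing and fork genes that are no members, also not plotted, separates the groups narrowly (-0.15 to 0.02 against 0.03 to 0.09).

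The wider cell cycle network was read from 5 further lists with 111 measured genes, of which 2 rose and 4 fell (5.41%, against 7.06% of all genes). Of 16 other G1/S regulators 3 fell and 0 rose, with a median change of -0.01. Cdc25a, the phosphatase that switches on Cdk2 by removing inhibitory phosphates, was at 4.93, 4.97, 4.90 and 4.78 in normoosmotic replicates 1 to 4 and at 4.02, 4.01, 3.95 and 4.04 in hypoosmotic replicates 1 to 4. Both groups were tight and lay far apart, a 1.85-fold lower level (change -0.89 ± 0.09 SE, limma adjusted p = 0.00285). Cdc25a passed in all 8 fits without 1 array (0.00331 to 0.0115), and also against a minimum fold change of 1.2 (0.0209).

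E2f5, a repressive E2F factor, fell from 6.14 ± 0.13 to 5.18 ± 0.51 (SD, n = 4 each), and Lin54, the subunit of the DREAM complex that binds CHR elements, from 5.73 ± 0.07 to 5.23 ± 0.17. Their limma adjusted p-values were 0.0229 and 0.0223, and each passed in 4 of 8 fits without 1 array (highest 0.0647 and 0.0644, both without normoosmotic replicate 3). Hypoosmotic replicate 3 was the lowest for E2f5 at 4.43, with the other hypoosmotic values between 5.28 and 5.55. Of 27 other licensing and fork genes 1 rose and 0 fell, with a median change of 0.07. It was Orc5, a subunit of the origin recognition complex, from 5.69 ± 0.15 to 6.18 ± 0.12 (adjusted p = 0.0233), which passed in 5 of 8 fits (highest 0.0663 without hypoosmotic replicate 2).

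Of 39 other mitosis genes 1 rose and 0 fell, with a median change of 0.14, and 10 of them were near background in both groups. Dlgap5, a spindle assembly protein, rose from 2.65 ± 0.11, a level near background, to 3.25 ± 0.27 (SD, n = 4 each), with a limma adjusted p of 0.0266 and 4 of 8 fits passed (highest 0.0732 without normoosmotic replicate 1). Of 14 other genes of nucleotide supply 1 fell and 0 rose, with a median of -0.02. It was Atic, which completes purine synthesis, from 6.36 ± 0.12 to 5.82 ± 0.24 (adjusted p = 0.0341; 4 of 8 fits, highest 0.0929 without normoosmotic replicate 3). Of 15 cell cycle inhibitors 0 passed (limma, 3 at an unadjusted p under 0.05, again beside 20.7% of all genes), with a median of 0.03. The smallest p was that of Fzr1, an activator of the anaphase-promoting complex in G1, at 5.84 ± 0.16 and 5.33 ± 0.28 (adjusted p = 0.0622), which passed after a further quantile normalization (0.0460) and in 1 of 8 fits without 1 array (0.0382 without hypoosmotic replicate 2, range to 0.171). The p53 target and kinase inhibitor Cdkn1a had a change of 0.63 ± 0.27 (adjusted p = 0.212).

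**Figure D5:**
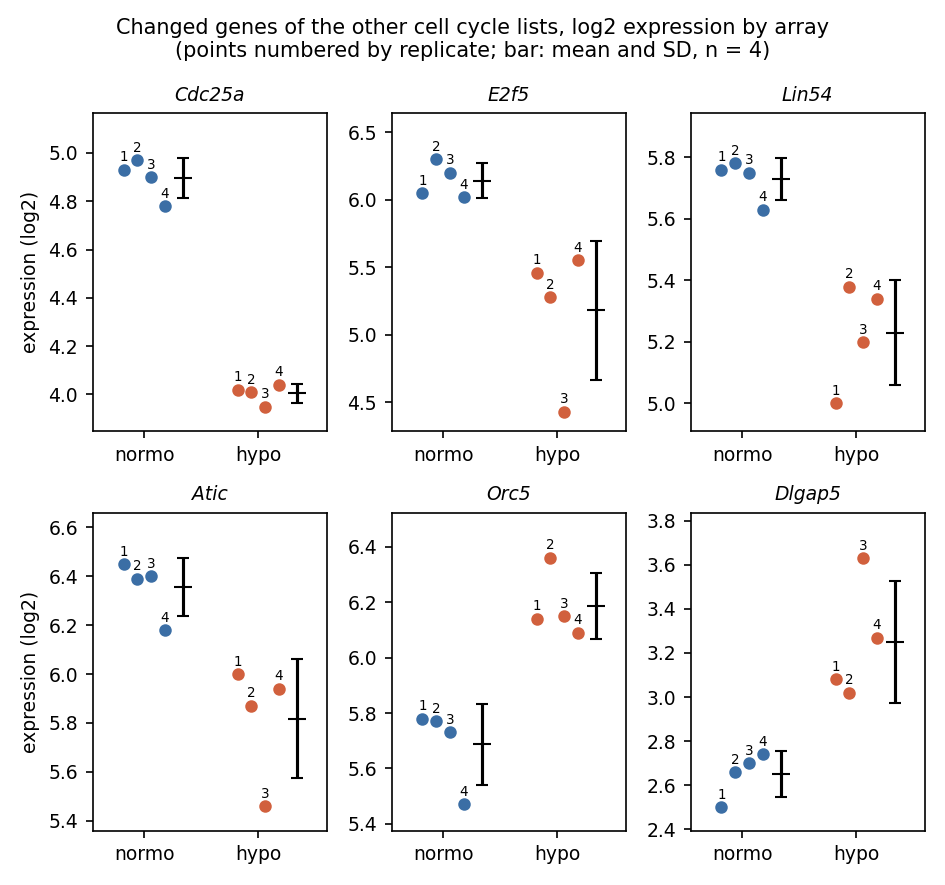
Log2 expression in each of the 8 arrays for the 6 genes of the further lists that changed, with points numbered by replicate and the mean with SD (n = 4) beside them. Cdc25a shows the tightest groups, 4.78 to 4.97 against 3.95 to 4.04, and the y axes differ between panels.

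The counts of the further lists shifted with single arrays, as did those of all genes (464 to 1050 called with 1 array omitted). Omitting normoosmotic replicate 3 or 4 left 0 rises, and omitting normoosmotic replicate 1 or hypoosmotic replicate 2 left 1. There were 6 rises when hypoosmotic replicate 3 was omitted and 4 when its replicate 4 was. The falls were 2 without normoosmotic replicate 1 and 1 without normoosmotic replicate 2 or 3.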

How the data were processed

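The values are log2 expression as the authors deposited it, 1 column per array, for 27596 probe sets. RMA, Expression Console (Affymetrix) and Transcriptome Analysis Console 4.0 are named, per the submitters' processing notes, without saying which did what. RMA equalises array distributions, so a shift shared by most genes would be removed. Array medians lay between 3.92 and 4.05, and the number of arrays limits the precision. Probe masking is not stated.

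Probe sets with 1 gene symbol in the 2016 platform annotation (15310) were named and updated by gene identifier or accession, and the highest-mean probe set per gene left 14506 genes. Groups came from the titles. Hypoosmotic minus normoosmotic changes went through lmFit and eBayes of limma 3.58.1 (R 4.3.3), with group as the single term, and adjusted by Benjamini-Hochberg over all genes, threshold 0.05, both tails. Members were not filtered by level. The test was run first on simulated data. Tables, motifs and plots used Python 3.11.15.

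Members and lists were chosen with earlier results of these data known. Named were members that passed or whose groups did not overlap, 11 fixed members, and the genes of each further list that passed (or the smallest p). Other members given singly, among them Tk1, Mcm5, Mcm6, Mcm10, Pola1, Ttk and Kif11, fell outside this rule. Some of these were added by an unadjusted limma p under 0.05, and so with their values seen. Rrm2b, Prim2, Pola2 and Cdkn1a, and the marker genes Kdr, Lum and Ahsp, were also named after their values were seen. Alternatives were the replicate number as a block, another variance model, array weights, quantile normalization, median centring, a filter of the 30% dimmest genes, averaged probe sets, a test over every probe set, limma's treat against a fold of 1.2 and each array left out. The other probe set of a member was added after seeing the data.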

Additional observations from a re-analysis of the deposited data

Results flagged for a closer look

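In 4 of 82 groups of 4 arrays, 1 value lay far from the other 3 by Dixon's criterion, which chance alone exceeds in about 1 of 20 groups. Pola1 was at 4.56 in hypoosmotic replicate 3, with the other 3 between 3.72 and 3.85. Pold1 was at 3.76 in hypoosmotic replicate 1, with the others between 3.54 and 3.57. In normoosmotic replicate 4, Rfc4 was at 3.76 (others 4.03 to 4.07) and Aurkb at 3.93 (others 4.18 to 4.23).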

How the results depend on the processing

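Leaving out each array in turn gave 464 to 1050 changed genes in all (1024 with all arrays), 2 to 4 members higher, 0 to 3 members lower, and for the further cell cycle lists 0 to 6 higher and 1 to 6 lower. Smaller groups also have less power. Against a minimum fold change of 1.2 the counts were 83 genes in all and 0 and 0 members. Under the other alternatives the counts of members stayed at 2 or 3 in each direction. The members' median change was 0.13 to 0.30 with 1 array left out. Rrm2 and Prim1 passed under all 8 omissions and, apart from the minimum fold change, under all other settings run. Tyms did not pass with all probe sets tested together or after median centring, and Cdk2 did not with all probe sets together. With the replicate block, 3 members were higher and 2 lower (Cdk2 did not pass, adjusted p = 0.0751 by limma), 8 genes of the further lists were higher instead of 2 and 4 lower, and 1027 genes changed in all. The deviations of same-numbered arrays correlated at 0.0068, 0.26, 0.12 and 0.063 for replicates 1 to 4. Normoosmotic replicates 2, 3 and 4 matched their own number best and replicate 1 matched hypoosmotic replicate 3, a hint of pairing from the data; since the labels state no pairing and not every correlation was over 0.1, the numbers were not used as pairs. The cause of these shifts was not tested. Levels near background limit what can be read of E2f1, Ccne2, Gins1, Aurka, Bub1b and Ttk, and without the 30% dimmest genes 34 members were tested.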
